A study of Ananas comosus with 78 samples.

Results

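The genes described here are those annotated as 1-aminocyclopropane-1-carboxylate (ACC) oxidase, ACO, in a pineapple RNA-seq study, namely Aco001358, Aco003285, Aco005735 and Aco015240. They were taken by these identifiers from the count files, which list 27024 genes, so that the 4 members are 4 of 27024. The study named them because they were differentially expressed (DE) in these same samples, so the list is not independent evidence of a response to ethephon. The libraries were made from field-grown pineapple, Ananas comosus, whose cultivar is given as 'MD1' in the genotype label and as 'MD2' in the growth protocol. Plants received 10 ml of water, the control, or 10 ml holding 50 mg of ethephon into their centre, and the labels name no other agent. The stem apex was sampled at 6 h, days 1 to 6 and day 8, and the base of the "D" leaf, the youngest fully grown leaf, at 6 h and days 1 to 4. That gave 26 conditions of tissue, treatment and time with 3 libraries each, 78 in all, and each library came from a pool of 3 plants. The labels only number the samplings, and these times follow the study's account of its results. By its methods, the plants of the 6 h sampling were harvested early on the morning of treatment. Their tissue was chilled and processed into the afternoon, and 6 h is counted to the end of that processing. These plants thus spent far less than 6 h with the treatment before harvest. Tissue of the later samplings was processed by noon.

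ACO carries out the last step of ethylene synthesis. ACC synthase (ACS) makes ACC from S-adenosylmethionine, and ACO oxidises ACC to ethylene. Ethylene binds to receptors in the endoplasmic reticulum that otherwise hold the kinase CTR1 active against EIN2, and its binding lets EIN2 act on the EIN3/EIL transcription factors. Ethephon is a compound that releases ethylene inside the plant, and growers use it to force pineapple to flower. In many plants ethylene feeds back on its own synthesis, with ACO genes that rise and others that fall after exposure.

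The 4 genes lie on different linkage groups of the Acomosus_321_v3 genome to which the authors mapped their reads. Aco001358 spans positions 12013620 to 12016290 of linkage group 2 on the minus strand, with 4 exons of 1460 bases in all. Aco003285 spans positions 1721426 to 1728052 of linkage group 17 on the minus strand and has 6 exons of 2058 bases. Aco005735 spans positions 12524111 to 12528981 of linkage group 11 on the plus strand and has 7 exons of 1245 bases. Aco015240 spans positions 1036921 to 1038593 of linkage group 5 on the plus strand and has 4 exons of 1256 bases. Aco001358 and Aco015240 thus share an exon number, while Aco003285 has the longest span, 6627 bases. The exons of Aco001358 share 127 bases, 8.70% of its exon length, with those of Aco001359, a gene of 2 exons on the opposite strand. The counting used no strand and left out reads on more than 1 gene, so reads in these 127 bases could not be given to either gene. Aco001359 had 0 counts in all 78 libraries, and adding it to Aco001358 changed no value. The other 3 members overlapped no annotated gene.

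Library totals ran from 1418697 to 13180667 counted read pairs, with a median of 5364715.5. The tissue labels were checked with 2 KNOTTED-1-like homeobox genes, which mark shoot meristems. Aco004983 lay between 2.18 and 52.1 counts scaled to a common library size (CPM) in the 48 apex libraries and was at 3 counts or fewer in 28 of the 30 leaf base libraries. Aco015873 lay between 32.7 and 521 CPM at the apex and had a median of 0.724 CPM in the leaf base, so the ranges of both genes were separate between the tissues. No defining marker of the leaf base was fixed. The 78 libraries were spread over 11 sequencing lanes. No lane held libraries of both treatments in any of the 8 apex comparisons or in those of leaf base days 3 and 4, so within these comparisons lane and treatment cannot be told apart. A joint fit over all libraries could hold lane as a term for 1 of them, apex day 6.

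Aco001358 and Aco015240 were abundant and the other two members scarce. Levels are given as CPM with library sizes scaled by the trimmed mean of M-values (TMM) over all 78 libraries. Aco001358 ranged from 19.5 to 2850 CPM over the 78 libraries with a median of 422, and Aco015240 from 106 to 1833 CPM with a median of 379.7. Both had counts in every library. Aco003285 had a median of 0.727 CPM and reached 93.1, and Aco005735 had a median of 1.13 CPM and reached 9.83. Aco003285 was at 3 counts or fewer in 37 of the 78 libraries and at 0 in 11, and Aco005735 was at 3 counts or fewer in 30 and at 0 in 4. Per kb of exon, the scale on which genes can be compared with each other, the medians were 289 CPM per kb for Aco001358, 302 for Aco015240, 0.353 for Aco003285 and 0.905 for Aco005735. Of the 48 apex libraries Aco015240 had the highest level per kb of the 4 genes in 44 and Aco001358 in 4, whereas in the 30 leaf base libraries Aco001358 was highest in 21 and Aco015240 in 9. In bulk tissue, fewer cells that express a gene and less RNA of it per cell cannot be told apart.

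**Figure D1:**
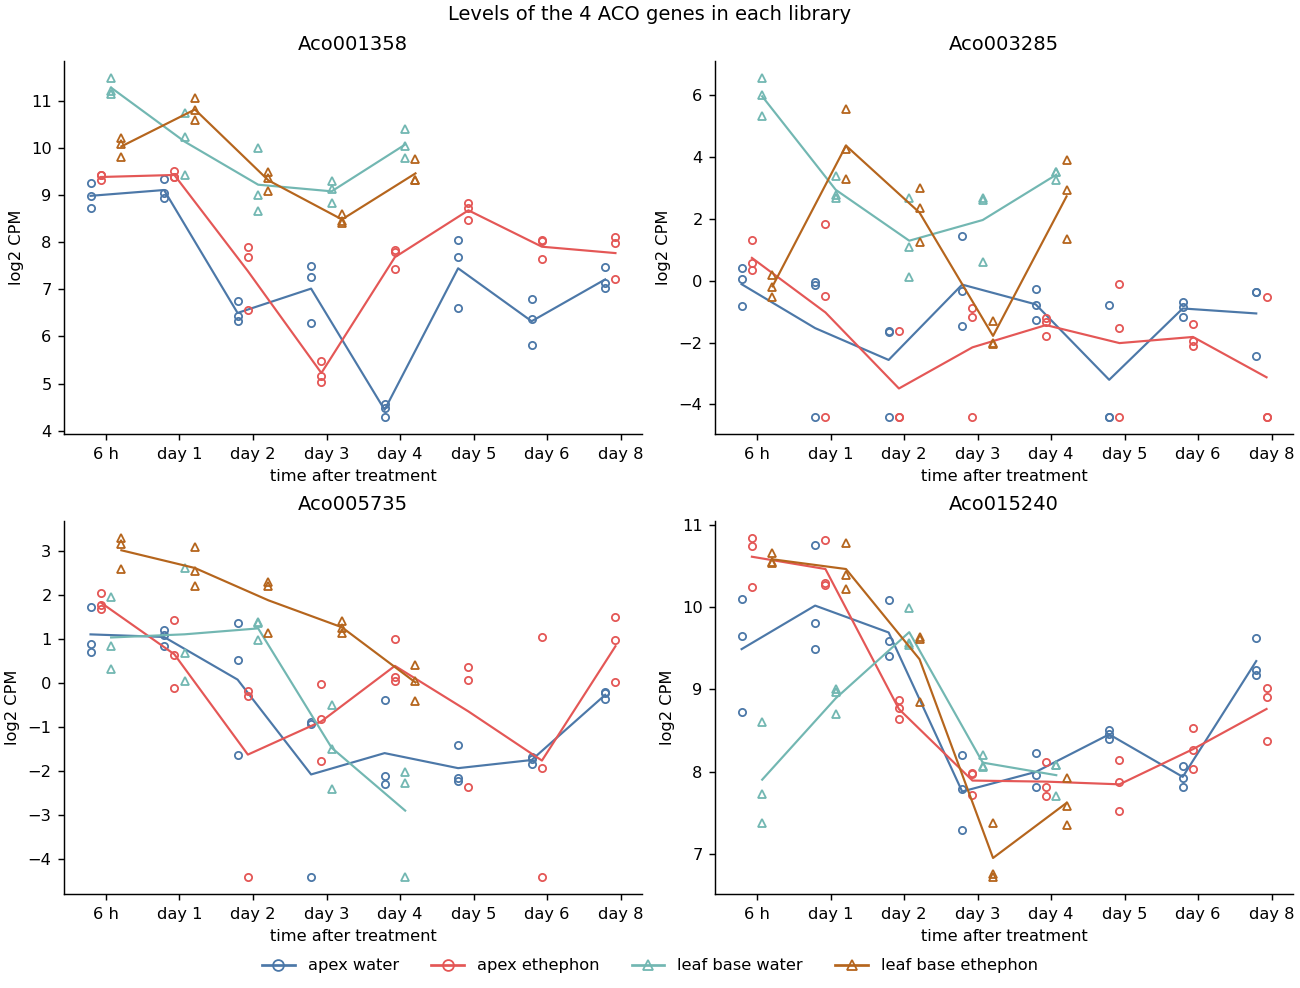
Level of each ACO gene in every library (points, log2 CPM with a prior count of 0.25, so that libraries with 0 counts lie at -4.41) against time after treatment, with lines through the means of 3 libraries. Aco001358 and Aco003285 lie higher in the leaf base than at the apex for most of the course, Aco015240 falls from 6 h to day 3 after ethephon in both tissues, and Aco005735 is highest in the treated leaf base.

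The level of Aco001358 was highest in the leaf base of water-treated plants at 6 h and lowest at the apex of water-treated plants on day 4. The leaf base libraries at 6 h held 2849.7, 2368 and 2245 CPM and the apex libraries on day 4 held 23.7, 19.5 and 22.3 CPM. The 26 conditions, ordered by their mean log2 CPM, gave 25 pairs of neighbours, and in 20 of these the libraries overlapped, so that the order within such a pair was not resolved. Neighbours were separate below the control leaf base at 6 h, below the treated leaf base at 6 h, below the treated leaf base on day 3, below the control apex on day 6 and below the treated apex on day 3. The 6 highest conditions and 10 of the 15 highest were from the leaf base, and the 11 lowest were all from the apex.

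Aco015240 was highest in the treated apex and the treated leaf base at 6 h, with 1587 ± 327 and 1530.0 ± 70.5 CPM (mean ± SD, n = 3), and lowest in the treated leaf base on day 3, with 127 ± 34.2 CPM. Of its 25 neighbouring pairs 23 overlapped. Neighbours were separate only below the control apex on day 8, the 10th condition in the order, and below the treated apex on day 2, the 13th. The 4 highest conditions were those of both tissues at 6 h and day 1 after ethephon.

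The scarce genes gave few separations. Aco003285 was highest in the control leaf base at 6 h (39.5, 93.1 and 64.2 CPM), followed by the treated leaf base on day 1 (46.5, 9.74 and 18.9 CPM), and all 25 pairs of neighbours overlapped. Its 8 highest conditions were all from the leaf base. Aco005735 was highest in the treated leaf base at 6 h (6.01, 8.83 and 9.83 CPM), followed by the treated leaf base on day 1 (4.54, 8.52 and 5.801 CPM) and day 2 (4.55, 4.87 and 2.16 CPM). Of its neighbouring pairs 24 overlapped, and neighbours were separate only below the treated apex at 6 h (3.15, 4.06 and 3.36 CPM).

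The first comparison asked whether ethephon changed the level of each ACO gene relative to the water control of the same tissue and time. Calls required a log2 change of 1 or more, that is 2-fold, together with an adjusted p below 0.05. Of the 52 tests of 4 genes in 13 comparisons 14 were called, 9 of them up-regulated and 5 down-regulated. Aco001358 was called in 5 of 8 comparisons at the apex and in 1 of 5 in the leaf base, whereas the other 3 genes were called in the leaf base only, Aco003285 in 3 comparisons, Aco015240 in 3 and Aco005735 in 2. Of all genes tested, 3.74% were called at the apex at 6 h, then 11.3%, 15.1%, 14.4%, 5.66%, 5.06% and 6.05% on days 1 to 6 in turn and 7.54% on day 8. In the leaf base 19.6% of all genes were called at 6 h, followed by 1.62%, 1.48%, 7.13% and 3.64% on days 1 to 4. All 4 members were called at 6 h in this tissue, 3 on day 3, 2 on day 1 and none on days 2 and 4.

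**Figure D2:**
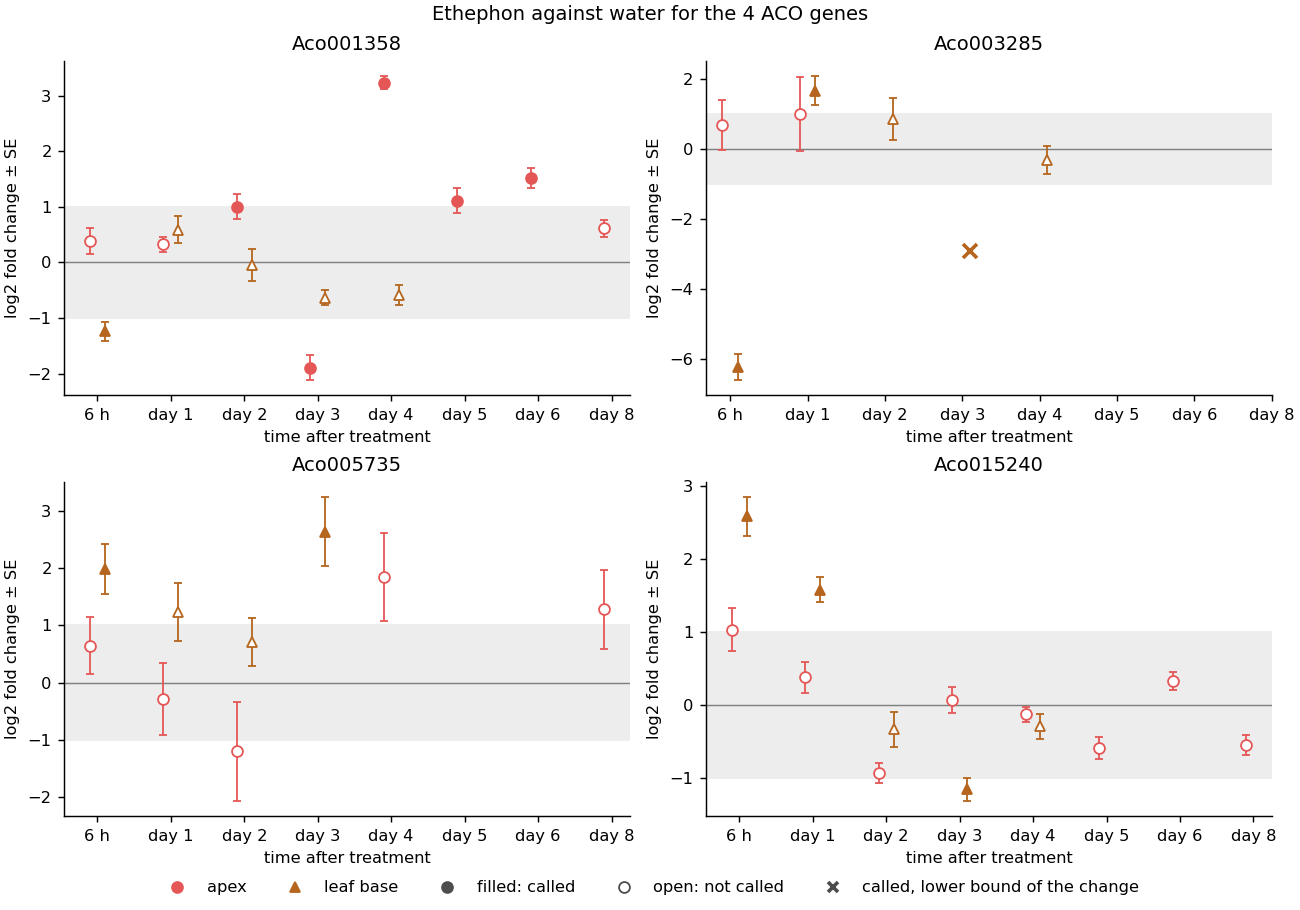
Ethephon against water for each ACO gene, as log2 fold change ± SE from the edgeR fit of each comparison (6 libraries), at the apex (circles) and the leaf base (triangles). Filled symbols were called, the grey band marks changes under 2-fold, crosses are lower bounds where a called group was at 3 counts or fewer, and comparisons with such a group and no call are left out. Aco001358 is called mainly at the apex, from -1.89 on day 3 to 3.23 on day 4, and the other 3 genes are called in the leaf base only.

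At the apex the level of Aco001358 was lower after ethephon on day 3 and higher on day 4. On day 3 the control libraries held 154, 77.96 and 179.9 CPM and the treated ones 44.6, 36.02 and 32.6 CPM. All treated libraries lay below all controls, a 3.704-fold decrease (log2 fold change -1.89 ± 0.22 (SE), adjusted p = 9.29e-07). On day 4 the order was the opposite, with 23.7, 19.5 and 22.3 CPM in the controls and 221, 172 and 226 CPM after ethephon. This 9.38-fold increase (log2 fold change 3.23 ± 0.12 (SE), adjusted p = 1.63e-20) was the largest change of an abundant ACO gene in any of the 13 comparisons. The control means themselves were 137 ± 52.97 CPM on day 3 and 21.8 ± 2.13 CPM on day 4, so that the lowest control level and the highest fold fell on the same day.

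Aco001358 was also higher in the treated apex on days 5 and 6. On day 5 the controls held 97.3, 206 and 264 CPM and the treated libraries 353, 422 and 457 CPM, without overlap, and the log2 fold change was 1.11 ± 0.22 (SE), adjusted p = 0.000669. The call of day 5 was lost with DESeq2 (1.10, adjusted p = 0.0523) and without control replicate 1, the lowest library, when the log2 fold change was 0.78. On day 6 the controls held 56.1, 82.2 and 111 CPM and the treated libraries 201, 262 and 259.8 CPM, a log2 fold change of 1.52 ± 0.18 (SE), adjusted p = 1.98e-05. Day 6 was the only apex sampling for which a joint fit of all libraries could separate lane from treatment, and with lane as a term the log2 fold change was 0.90 (adjusted p = 0.267). On day 8 the groups overlapped, with 130.3, 178 and 139 CPM in the controls and 148, 276 and 252 CPM after ethephon, and the log2 fold change of 0.61 ± 0.15 (SE), adjusted p = 0.0011, was under 2-fold.

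The early apex samplings showed smaller differences for Aco001358. At 6 h the treated libraries (633, 685 and 681 CPM) lay just above the controls (607, 502 and 422 CPM) and on day 1 they did so again (667, 722 and 671 against 644, 489.9 and 528 CPM), but neither log2 fold change, 0.38 (adjusted p = 0.484) and 0.33 (adjusted p = 0.0754), passed the test. On day 2 the treated libraries held 207, 94.7 and 238 CPM and overlapped the controls (86.1, 108 and 79.7 CPM). The log2 fold change of 1.00 ± 0.22 (SE), adjusted p = 0.00118, stood at the limit itself. It fell to between 0.98 and 0.99 with DESeq2, with relative log expression (RLE) normalisation and with a filter on low counts, and to between 0.72 and 0.96 without any of 4 of the 6 libraries (control replicates 1 and 3, treated replicates 1 and 3).

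In the leaf base Aco001358 was called at 6 h only. The controls held 2849.7, 2368 and 2245 CPM, the highest levels of any ACO gene in the series, and the treated libraries 1179, 890.5 and 1086 CPM. The level was thus 2.36-fold lower after ethephon (log2 fold change -1.24 ± 0.17 (SE), adjusted p = 0.000108). On day 1 the groups overlapped (687, 1712 and 1195 CPM in the controls, 1549, 1771 and 2110.3 CPM after ethephon), and the log2 fold change was 0.59 (adjusted p = 0.22), which became 1.11 (adjusted p = 0.0247) with lane as a term. On day 3 the treated libraries (348, 341 and 384 CPM) lay below the controls (556, 624 and 453 CPM), a difference of -0.63 (adjusted p = 0.00385) on the log2 scale that passed the p-value limit and was under 2-fold. On days 2 and 4 the log2 fold changes were -0.04 (adjusted p = 0.98) and -0.58 (adjusted p = 0.069).

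Aco015240, the other abundant gene, was up-regulated early and down-regulated later in the leaf base. At 6 h the controls held 389, 167 and 212 CPM and the treated libraries 1611, 1499 and 1480.5 CPM. This was a 5.99-fold increase (log2 fold change 2.58 ± 0.27 (SE), adjusted p = 8.22e-06). On day 1 the level was 416, 514 and 500.0 CPM in the controls and 1193, 1754 and 1336 CPM after ethephon, a 2.99-fold increase (log2 fold change 1.58 ± 0.17 (SE), adjusted p = 0.000297). The groups did not overlap at either time. On day 2 they overlapped, with 754, 741 and 1017 CPM against 781, 796 and 462 CPM and a log2 fold change of -0.33 (adjusted p = 0.636). On day 3 the treated libraries (106, 166 and 108 CPM) lay below the controls (295, 267 and 268 CPM), a 2.22-fold decrease (log2 fold change -1.15 ± 0.16 (SE), adjusted p = 0.000105). On day 4 they overlapped again and the log2 fold change was -0.29 (adjusted p = 0.391).

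At the apex no change of Aco015240 was called by edgeR's quasi-likelihood test, though 5 of the 8 had an unadjusted p below 0.05, 3 passed the adjusted limit with less than a 2-fold difference and DESeq2 called 1. At 6 h the treated libraries held 1216, 1833 and 1711 CPM and the controls 422, 803 and 1093 CPM without overlap, and the log2 fold change of 1.03 ± 0.30 (SE), adjusted p = 0.0505, missed the limit. It was called with edgeR's exact test (adjusted p = 0.0385), with DESeq2 (adjusted p = 0.0414), in a joint fit of all 78 libraries (adjusted p = 0.00299) and without control replicate 3 or treated replicate 1. On day 2 the order was reversed. The controls held 676, 1086 and 769 CPM and the treated libraries 436, 469 and 399 CPM, and the log2 fold change of -0.93 ± 0.14 (SE), adjusted p = 2.08e-05, became -1.07 and a call without control replicate 1. On day 5 the treated libraries (185, 282 and 234 CPM) lay below the controls (350.4, 364 and 337 CPM) with a log2 fold change of -0.59 (adjusted p = 0.00747), and on day 8 (330.4, 479 and 517 against 602, 788 and 577 CPM) with one of -0.55 (adjusted p = 0.00154). On days 1, 3, 4 and 6 the groups overlapped and the log2 fold changes were 0.38 (adjusted p = 0.199), 0.07 (adjusted p = 0.798), -0.13 (adjusted p = 0.413) and 0.33 (adjusted p = 0.0742).

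Aco003285 was found mainly in the leaf base. In the control leaf base at 6 h it had 114, 268 and 428 counts, or 39.5, 93.1 and 64.2 CPM. After ethephon it had 5, 4 and 7 counts, or 0.6397, 0.822 and 1.09 CPM. The 75.4-fold decrease (log2 fold change -6.24 ± 0.38 (SE), adjusted p = 2.33e-07) was the largest fitted difference between ethephon and water of any member, and with lane as a term it was -6.13. On day 1 the difference had the opposite sign, with 10.3, 6.33 and 6.74 CPM in the controls and 46.5, 9.74 and 18.9 CPM after ethephon. The ranges overlapped and the log2 fold change was 1.67 ± 0.41 (SE), adjusted p = 0.0336. That call rested on treated replicate 1, without which it was 0.85 (adjusted p = 0.162), and it was also lost without control replicate 3 (1.58, adjusted p = 0.057) and with the filter on low counts (adjusted p = 0.0938).

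On day 3 Aco003285 was again lower in the treated leaf base. The controls had 41, 43 and 9 counts and the treated libraries 1, 2 and 1, all at or under the floor of 3 counts. The decrease from the control mean was therefore at least 7.58-fold, taking 3 counts in the shallowest treated library as the floor (adjusted p = 0.000583). This bound was 6.18-fold without control replicate 1, 6.41-fold without control replicate 2 and 10.1-fold without control replicate 3. On day 2 (1.03, 2.09 and 6.25 CPM in the controls, 5.05, 2.34 and 7.85 CPM after ethephon) and day 4 (11.3, 9.42 and 11.3 against 7.63, 2.47 and 14.8 CPM) the groups overlapped and the log2 fold changes were 0.87 (adjusted p = 0.618) and -0.32 (adjusted p = 0.701). At the apex Aco003285 had between 0 and 16 counts per library and was at 3 counts or fewer in 34 of 48. No apex comparison was called by edgeR's quasi-likelihood test or by DESeq2 and 1 of 8 had an unadjusted p below 0.05. Day 3 (controls 16, 2 and 3 counts, treated 2, 0 and 3) became a call without control replicate 2 (adjusted p = 0.0298).

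Aco005735 was scarce, and it was higher in the treated than in the control leaf base at 6 h and on day 3. At 6 h the controls had 11, 5 and 8 counts (3.81, 1.74 and 1.2 CPM) and the treated libraries 47, 43 and 63 counts (6.01, 8.83 and 9.83 CPM). The groups were separate, with a 3.95-fold increase (log2 fold change 1.98 ± 0.44 (SE), adjusted p = 0.00308). On day 3 the counts were 2, 1 and 4 in the controls and 11, 13 and 13 after ethephon. The fitted log2 fold change was 2.63 ± 0.61 (SE), adjusted p = 0.00569, and 3.28 without control replicate 3. On day 1 control replicate 2, with 6.04 CPM, lay among the treated libraries (4.54, 8.52 and 5.801 CPM), and the log2 fold change was 1.22 (adjusted p = 0.22). Without that replicate it was 2.32 (adjusted p = 0.00447) and a call. On day 2 the log2 fold change was 0.71 (adjusted p = 0.533), and on day 4 the counts were 0, 1 and 1 in the controls and 4, 2 and 3 after ethephon, with no call.

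At the apex Aco005735 had between 0 and 30 counts per library, and no change was called by edgeR's quasi-likelihood test or by DESeq2, with 1 of 8 at an unadjusted p below 0.05. The nearest to a call was day 4, with 1, 1 and 4 counts in the controls and 10, 3 and 8 after ethephon. The log2 fold change of 1.84 ± 0.77 (SE), adjusted p = 0.0616, passed with edgeR's exact test (adjusted p = 0.0304) and without control replicate 3 (2.78, adjusted p = 0.0334). The treated libraries of 6 h had 13, 30 and 26 counts and the controls 7, 10 and 3, a log2 fold change of 0.65 (adjusted p = 0.618).

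All 4 calls of the leaf base at 6 h were kept in the joint fit with lane as a term, the 2 lanes shared by both treatments allowing it. There the log2 fold changes were -1.06 for Aco001358, -6.13 for Aco003285, 2.20 for Aco005735 and 2.66 for Aco015240. On day 1 with 1 shared lane the calls of Aco003285 (1.99, adjusted p = 0.0157) and Aco015240 (1.61, adjusted p = 0.000787) were kept too. Aco001358 and Aco003285 were thus lowered and Aco005735 and Aco015240 raised in the same 6 libraries at 6 h.

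The second comparison asked whether the ethephon effect differed between apex and leaf base, as the interaction of tissue and treatment over 12 libraries at each of the 5 shared times. Of 20 tests 7 were called. Of all genes, 16.3% were called at 6 h, and 9.80%, 10.5%, 10.0% and 7.38% on the 4 days that followed. These fits held no lane term, and at the apex no lane held both treatments, so lane cannot be told apart from these differences. The effect of ethephon at 6 h was more positive at the apex for Aco001358 (difference of log2 fold changes 1.61 ± 0.29 (SE), adjusted p = 0.000297) and for Aco003285 (6.88 ± 0.68 (SE), adjusted p = 3.61e-07), both of which were called down in the leaf base and not at the apex. It was less positive at the apex for Aco015240 (-1.56 ± 0.43 (SE), adjusted p = 0.0118), with effects of 1.03 at the apex and 2.58 in the leaf base. On day 1 the difference for Aco015240 was -1.18 ± 0.33 (SE), adjusted p = 0.0151, a call that was lost without the control apex replicate 2 (-0.72, adjusted p = 0.0724) or the treated leaf base replicate 2 (-0.98).

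On day 3 the difference between tissues was -1.27 ± 0.29 (SE), adjusted p = 0.00379, for Aco001358, whose effects were -1.89 at the apex and -0.63 in the leaf base. For Aco015240 it was 1.22 ± 0.26 (SE), adjusted p = 0.00218, with effects of 0.07 and -1.15. On day 4 the difference for Aco001358 was 3.83 ± 0.24 (SE), adjusted p = 1.68e-09. Its ethephon effect was 3.23 at the apex and -0.58 in the leaf base. No interaction was called on day 2, where Aco001358 had a difference of 1.04 ± 0.42 (SE), adjusted p = 0.104, which became 1.35 and a call without treated apex replicate 2 and 1.28 and a call without control leaf base replicate 1. None was called for Aco005735 at any time by edgeR or DESeq2, and 0 of 5 had an unadjusted p below 0.05, though without control leaf base replicate 2 its day 1 difference was -2.59 (adjusted p = 0.0157).

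The third comparison set the apex against the leaf base at the same time and under the same treatment. Of 40 tests 24 were called, 21 of them lower at the apex and 3 higher. Over all genes the tissues differed widely. In the water controls 33.0% of all genes were called at 6 h, and 21.5%, 21.7%, 28.3% and 33.3% on days 1 to 4 in turn. After ethephon 20.5% were called at 6 h, and 32.0%, 32.2%, 34.6% and 30.0% on days 1 to 4 in turn. These comparisons use the same libraries as those of ethephon with water. Only on day 2 after ethephon did any lane hold libraries of both tissues. In all other comparisons of apex with leaf base, lane and tissue cannot be told apart.

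**Figure D3:**
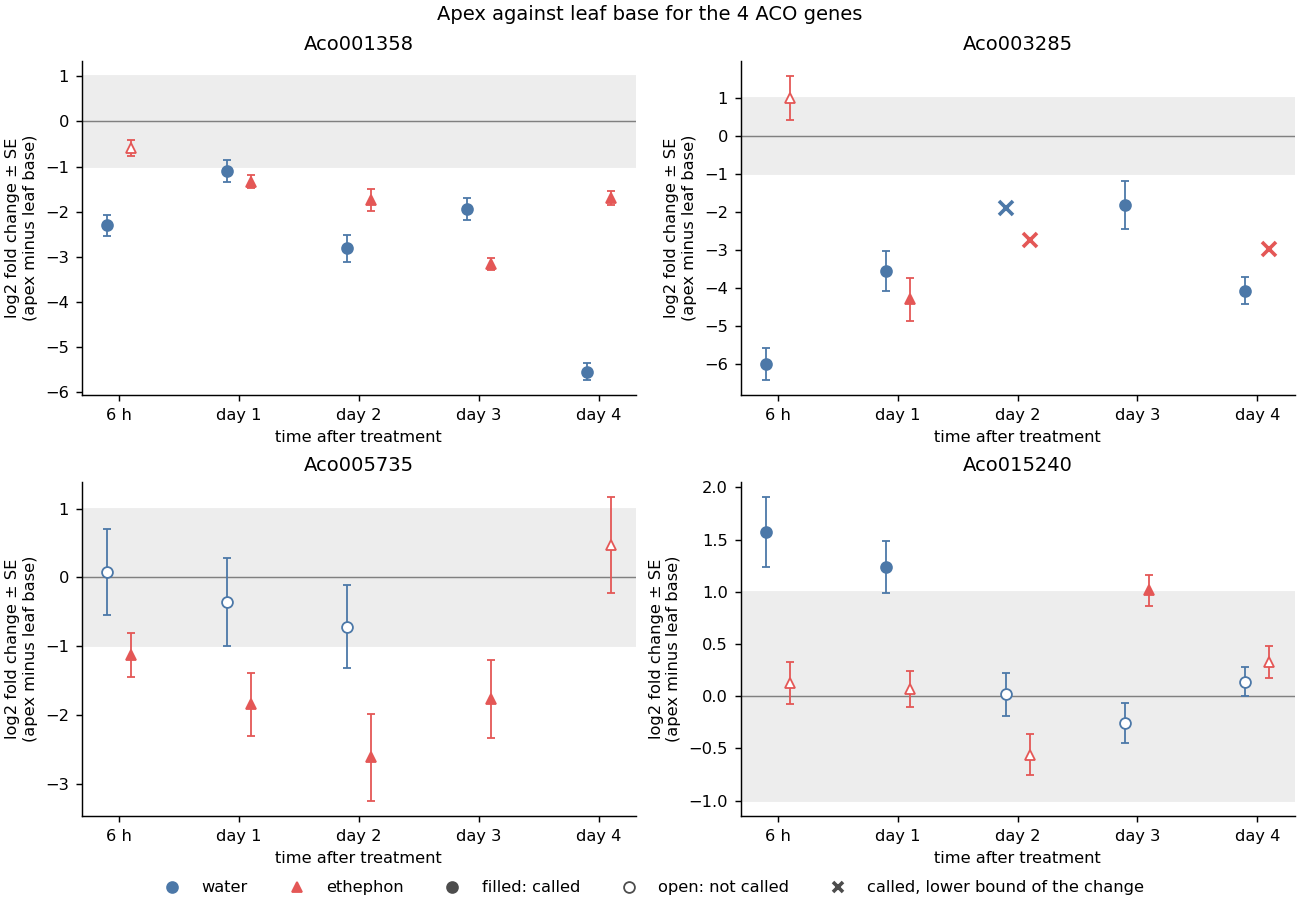
Apex against leaf base for each ACO gene, as log2 fold change ± SE (apex minus leaf base, 6 libraries a comparison) in water controls (circles) and after ethephon (triangles) at the 5 shared times. Filled symbols were called, the grey band marks differences under 2-fold, crosses are lower bounds where the apex was at 3 counts or fewer, and comparisons with such a group and no call are left out. Aco001358 lies below 0 at every point, and Aco005735 is called after ethephon only.

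Aco001358 was lower at the apex in all 10 comparisons, without overlap in any, and 9 were called. In the water controls the log2 difference was -2.30 (adjusted p = 5.12e-07) at 6 h, and over days 1 to 4 it was -1.10 (adjusted p = 0.0028), -2.81 (adjusted p = 1.62e-05), -1.94 (adjusted p = 6.24e-06) and -5.54 (adjusted p = 3.75e-11) in turn. The last is a 46.5-fold difference, between 21.8 ± 2.13 CPM at the apex and 1090.4 ± 238 CPM in the leaf base. After ethephon the log2 differences ran from -3.16 (adjusted p = 4.09e-13) on day 3 to -0.59 (adjusted p = 0.0258) at 6 h, the only one under 2-fold. The day 1 call in the controls was lost without leaf base replicate 2 (-0.75).

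Aco003285 was lower at the apex in the controls of all 5 times. At 6 h the apex had 5, 3 and 1 counts and the leaf base 114, 268 and 428, a 63.3-fold difference (log2 difference -5.98 ± 0.43 (SE), adjusted p = 1.15e-08). The differences of day 1 (-3.54, adjusted p = 8.86e-05) and day 4 (-4.06, adjusted p = 1.93e-07) were also without overlap. On day 2 the apex had 1, 0 and 1 counts against 7, 15 and 17 in the leaf base, at least a 3.73-fold difference (adjusted p = 0.0119), which was lost without apex replicate 1 (adjusted p = 0.0579) or 2 (adjusted p = 0.0633). Without leaf base replicate 3 that bound was 1.87-fold. On day 3 the groups overlapped, since apex replicate 1 had 16 counts. That difference of -1.81 (adjusted p = 0.0251) was -3.14 without this library, and without any of 4 other libraries (apex replicates 2 and 3, leaf base replicates 1 and 2) it lay between -1.30 and -1.61 and was no call. After ethephon it was lower at the apex on day 1 (-4.29, adjusted p = 2.54e-07, or -5.94 without apex replicate 3 and -3.48 without leaf base replicate 1), by at least 6.603-fold on day 2 and by at least 7.86-fold on day 4. The day 2 bound was 4.81-fold without leaf base replicate 3. The day 4 bound was 4.79-fold without leaf base replicate 3 and 14.2-fold without apex replicate 2. At 6 h after ethephon the tissues stood at 10, 9 and 11 counts at the apex and 5, 4 and 7 in the leaf base, with a log2 difference of 1.00 (adjusted p = 0.206), and on day 3 both were at the floor.

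Aco005735 was called between the tissues in 4 comparisons, all of them after ethephon. In the controls no difference was called by edgeR or DESeq2, 0 of 5 had an unadjusted p below 0.05, and the groups overlapped at all 5 times. After ethephon the apex was lower at 6 h, with a log2 difference of -1.12 (adjusted p = 0.0153), and through days 1 to 3, with -1.84 (adjusted p = 0.00122), -2.61 (adjusted p = 0.00139) and -1.77 (adjusted p = 0.0101) in turn. On day 1 the apex held 1.501, 0.874 and 2.67 CPM and the leaf base 4.54, 8.52 and 5.801 CPM. The call of 6 h was lost without leaf base replicate 3 (-0.97, adjusted p = 0.0759), and the differences of days 2 and 3 became -3.20 without apex replicate 2 and -2.46 without apex replicate 3. Whether the tissue difference itself changed with ethephon is the interaction given above, which was not called for this gene.

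Aco015240 was the only member with calls that were higher at the apex. In the controls it was 2.98-fold higher at 6 h (log2 difference 1.57 ± 0.33 (SE), adjusted p = 0.00104), with 422, 803 and 1093 CPM at the apex and 389, 167 and 212 CPM in the leaf base. On day 1 it was 2.36-fold higher (1.24, adjusted p = 0.00134), a call lost without apex replicate 2 (0.77). On days 2, 3 and 4 of the controls the tissues overlapped and none was called. After ethephon the levels at 6 h were 1216, 1833 and 1711 CPM at the apex and 1611, 1499 and 1480.5 CPM in the leaf base, with a log2 difference of 0.13 ± 0.20 (SE), adjusted p = 0.66. On day 2 after ethephon the tissues overlapped, and the log2 difference of -0.56 (adjusted p = 0.0225) was under 2-fold. The only call after ethephon, day 3 (1.01, adjusted p = 6.84e-06), stood at the fold limit and was just under it with DESeq2 and with RLE normalisation (0.98 in each) and without any of 4 of the 6 libraries (apex replicates 1 and 3, leaf base replicates 1 and 3), when it was between 0.90 and 0.97.

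Within each tissue and treatment the level of a gene was tested for any change over the samplings. The test held no lane term, and lanes differed between samplings. All treated leaf base libraries of days 3 and 4 were in a lane that held none of 6 h to day 2. The control apex libraries changed lane after day 5. Where lane changed with time, the effects of the lane and of time cannot be told apart. Of 16 tests 15 were called. Of all genes 32.7% were called over the 8 samplings of the control apex, 41.1% over those of the treated apex, 31.7% over the 5 of the control leaf base and 24.6% over those of the treated leaf base. The exception was Aco003285 in the control apex (adjusted p = 0.159), which was called without replicate 2 (adjusted p = 0.0394). Without that replicate day 5 held only 0 counts, so no fold could be fitted and the call rests on the p-value alone. The call of Aco003285 in the treated apex was lost without replicate 1 (adjusted p = 0.0599) or 3 (adjusted p = 0.381).

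The abundant genes changed over time in the water controls as well as after ethephon. Aco001358 in the control apex went from 554 ± 80.4 CPM on day 1 to 21.8 ± 2.13 CPM on day 4 (adjusted p = 2.53e-15 over the 8 samplings), and in the treated apex from 687 ± 31.1 CPM on day 1 to 37.7 ± 6.18 CPM on day 3 (adjusted p = 2.89e-17). The lowest point thus came at day 4 in the controls and at day 3 after ethephon. Aco015240 in the control apex went from 1114 ± 539 CPM on day 1 to 224 ± 68.8 CPM on day 3 and stood at 656 ± 115 CPM on day 8. In the treated leaf base it went from 1530.0 ± 70.5 CPM at 6 h to 127 ± 34.2 CPM on day 3 (adjusted p = 6.85e-11). In the control leaf base its highest level came on day 2 (837 ± 156 CPM) and its lowest at 6 h (256 ± 118 CPM).

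The scarce genes also changed over time. Aco003285 in the treated leaf base had 5, 4 and 7 counts at 6 h, 318, 40 and 104 on day 1 and 1, 2 and 1 on day 3 (adjusted p = 1.61e-07 over the 5 samplings). In the control leaf base it was highest at 6 h (65.6 ± 26.8 CPM) and lowest on day 2 (3.13 ± 2.75 CPM). Aco005735 in the treated leaf base had its means in falling order over the 5 samplings, 8.23 ± 1.98, 6.29 ± 2.04, 3.86 ± 1.48, 2.37 ± 0.246 and 0.987 ± 0.283 CPM (adjusted p = 2.51e-05). The libraries of neighbouring samplings overlapped except between days 3 and 4.

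Per kb of exon, the 4 levels can be summed and the share of each gene in the sum compared. Aco001358 and Aco015240 made up nearly the whole sum. Aco003285 took at most 2.51% of it and Aco005735 at most 0.607% in any library. At the apex the share of Aco015240 was 91.2% ± 1.01 (SD, n = 3) in the controls on day 2, 92.8% ± 1.59 on day 4 and 83.5% ± 0.762 on day 8. The share of Aco001358 at the apex was 6.91% ± 1.51 in the controls on day 4 and 42.7% ± 2.42 after ethephon, and on day 5 it was 30.7% ± 10.6 and 60.3% ± 3.58. The treated apex of day 5 was the only apex condition in which Aco001358 held the larger mean share.

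**Figure D4:**
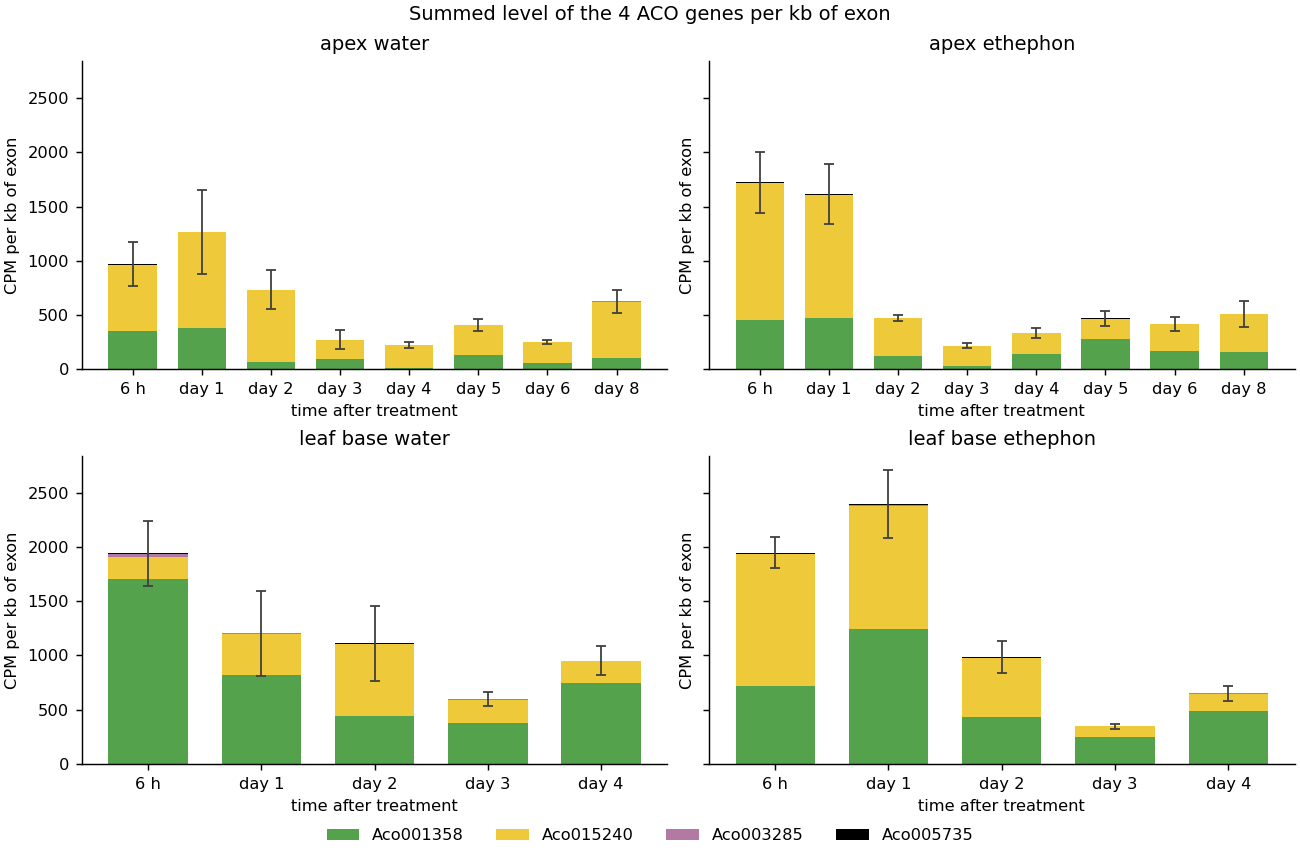
Summed level of the 4 ACO genes in CPM per kb of exon at each time (bars, means of 3 libraries, with error bars of 1 SD of the sum), split by gene, for each tissue and treatment. Aco001358 and Aco015240 fill the bars, and at 6 h in the leaf base bars of like height are made mostly of Aco001358 in the controls and mostly of Aco015240 after ethephon.

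At 6 h, in the leaf base, the sum was about the same with water and ethephon while its makeup differed. The sum was 1941 ± 299 CPM per kb in the controls and 1945 ± 143 after ethephon. Aco001358 made up 87.99% ± 2.33 of it in the controls and 36.9% ± 2.79 after ethephon, and Aco015240 10.2% ± 3.13 and 62.7% ± 2.75. The shares of the libraries did not overlap between the treatments. On day 1 the sum was 1206 ± 391 in the controls and 2394 ± 313 after ethephon, the highest mean sum of the 26 conditions, and on day 3 it was 596 ± 62.8 and 348 ± 22.2. At the apex the sum was 967 ± 204 in the controls and 1723 ± 280.1 after ethephon at 6 h, and its lowest means were 216 ± 21.1 in the treated apex of day 3 and 220.4 ± 28.7 in the control apex of day 4. The sums and shares were not tested.

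Across the means of the 26 conditions the 4 genes were related to each other to different degrees, given here as a description, since the conditions share a field and lanes. Pearson's r was 0.696 between Aco001358 and Aco003285, 0.618 between Aco005735 and Aco015240 and 0.549 between Aco001358 and Aco005735. It was 0.345 between Aco001358 and Aco015240, 0.285 between Aco003285 and Aco005735 and 0.0597 between Aco003285 and Aco015240. Among 19824 genes that reached 1 CPM in 3 libraries or more, the 5 most like Aco001358 over the 26 conditions were Aco021854, Aco025388, Aco024110, Aco005715 and Aco017782, with r from 0.938 to 0.913. For Aco003285 they were Aco017407, Aco005437, Aco018546, Aco014434 and Aco002148, with r from 0.910 to 0.896. For Aco005735 they were Aco006289, Aco006866, Aco006305, Aco006255 and Aco029427, with r from 0.778 to 0.761. Among these matches and those that follow, a name is given for Aco000286 only. For Aco015240 they were Aco000286, Aco017973, Aco022390, Aco005535 and Aco004492, with r from 0.873 to 0.805. The study annotates the first of them, Aco000286, as a non-symbiotic hemoglobin, a protein that binds oxygen and nitric oxide. The other ACO genes were among the genes compared, and none of them was among the first 5 of any member. With Spearman's correlation 0 of the 5 genes of Aco001358, 2 of Aco003285, 3 of Aco005735 and 3 of Aco015240 were among the first 5 again, and with the 16 apex conditions alone 1, 0, 2 and 1 were.

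The other steps of the pathway were followed with 13 genes that the study names for ethylene synthesis and signalling. They are 3 ACS genes, 5 receptors, CTR1, EIN2 and 3 EIN3/EIL genes, and like the ACO genes they were named by the study from these samples. Over the 13 comparisons of ethephon with water 20 of 169 tests were called, 8 up and 12 down. By comparison 5 of 13 genes were called at the apex on day 3 (2 up, 3 down, beside 14.4% of all genes), 3 in the leaf base at 6 h (2 up, 1 down, beside 19.6%) and 3 on leaf base day 3 (2 up, 1 down, beside 7.13%), and none at the apex at 6 h, day 1 and day 5 or in the leaf base on day 1. The median log2 fold change of the 13 genes ran from -0.32 at the apex on day 1 to 0.52 in the leaf base at 6 h, while the median of all genes tested lay within -0.06 and 0.06 in every comparison.

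**Figure D5:**
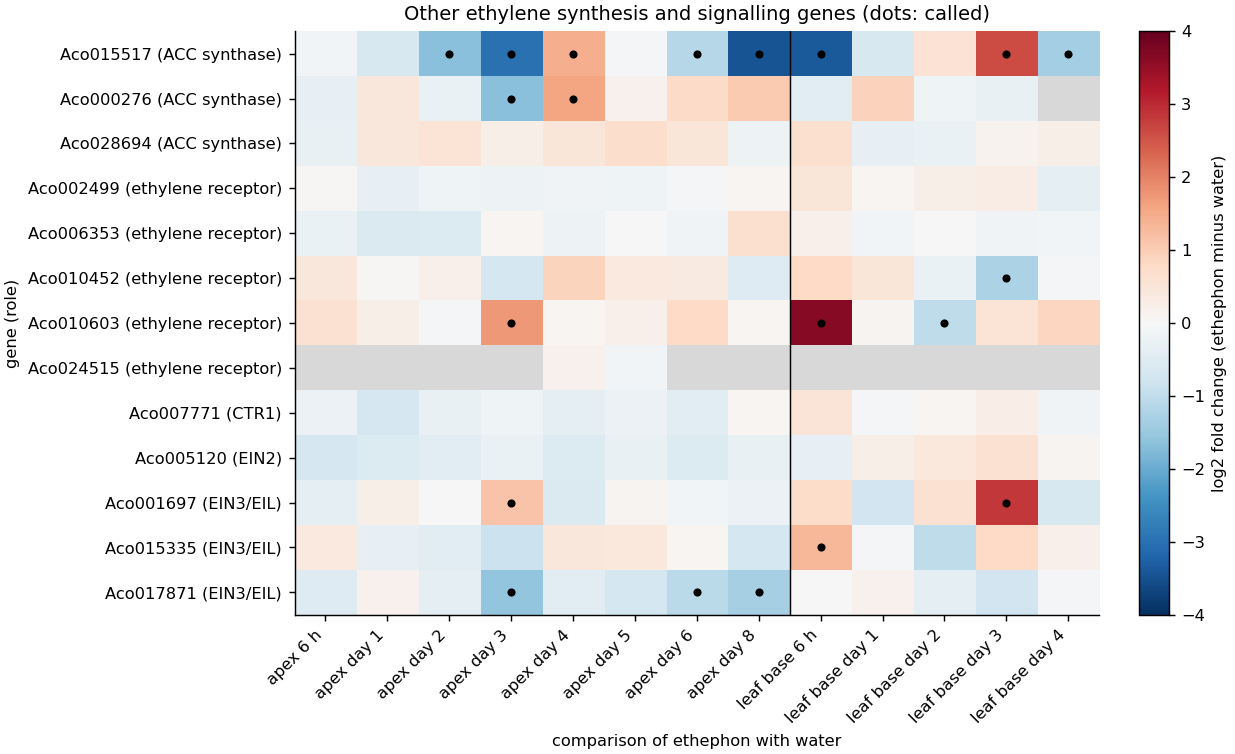
Log2 fold change of ethephon against water (colour) for 13 other genes of ethylene synthesis and signalling in the 13 comparisons, with dots where a change was called and grey where a group was at 3 counts or fewer. The ACC synthase gene Aco015517 holds 8 of the 20 calls, and the receptors other than Aco010603 and Aco010452, CTR1 and EIN2 hold none.

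Of the ACS genes, which make the substrate of ACO, Aco015517 was called in 8 comparisons, 6 of them down-regulated. At 6 h in the leaf base it went from 497 ± 116 CPM in the controls to 48.97 ± 34.1 CPM after ethephon (log2 fold change -3.35 ± 0.43 (SE), adjusted p = 4.82e-05), the same direction as Aco001358 and Aco003285 in those libraries and the opposite of Aco015240 and Aco005735. On leaf base day 3 it rose (2.60, adjusted p = 1.61e-05), where Aco015240 and Aco003285 were down-regulated. At the apex it fell on day 3 (-2.98, adjusted p = 8.74e-09) and rose on day 4 (1.44, adjusted p = 1.70e-07), the directions that Aco001358 took at these times, and it fell on day 8 (-3.44, adjusted p = 8.20e-20), when no ACO gene was called. Its other calls were falls at the apex on day 2 (-1.66, adjusted p = 1.30e-05), on day 6 with overlapping groups (-1.14, adjusted p = 0.00318) and in the leaf base on day 4 (-1.37, adjusted p = 0.00942). Aco000276 also fell on day 3 (-1.66, adjusted p = 0.0138) and rose on day 4 (1.58, adjusted p = 0.00297) at the apex, and Aco028694 was not called.

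Of the receptors, which bind ethylene, Aco010603 rose at 6 h in the leaf base (21.5 ± 6.28 CPM in the controls, 264 ± 22.3 CPM after ethephon, log2 fold change 3.65 ± 0.21 (SE), adjusted p = 2.25e-07) and on day 3 at the apex (1.73, adjusted p = 9.73e-08), and it fell on day 2 in the leaf base (-1.02, adjusted p = 0.0405). Aco010452 fell on leaf base day 3 (-1.28, adjusted p = 1.15e-05), and the other 3 receptors were not called. Of these, Aco024515 had a median of 0.315 CPM and 0 counts in 17 libraries, so the lack of a call says little about it. Aco006353 passed the adjusted limit under 2-fold at the apex on days 1 (-0.57), 2 (-0.54) and 8 (0.65), and Aco002499 in the leaf base at 6 h (0.49). CTR1, with 6 of 13 comparisons at an unadjusted p below 0.05, and EIN2, with 7, were called in none by edgeR or DESeq2, and their log2 fold changes were at most 0.68 in size. Of the EIN3/EIL genes, which code for transcription factors, Aco001697 rose on day 3, both at the apex (1.14, adjusted p = 0.000181) and in the leaf base (2.84, adjusted p = 2.89e-08), Aco015335 rose at 6 h in the leaf base (1.34, adjusted p = 0.000259) and Aco017871 fell at the apex on day 3 (-1.58, adjusted p = 3.50e-08), day 6 (-1.09, adjusted p = 7.14e-06) and day 8 (-1.34, adjusted p = 8.57e-11).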

How the data were processed

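Stem apex and leaf base RNA of 78 libraries was sequenced from stranded mRNA libraries. The authors trimmed reads with Trimmomatic 0.36, mapped them to Acomosus_321_v3 with HISAT2 2.0.5 and counted pairs per gene with featureCounts 1.6.0, with reads mapped to several places included and no strand setting, so a read of a near-identical copy could add to a gene. The deposited values are raw counts per gene, and no value was pooled over libraries.

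Counts were fitted with edgeR 4.0.16 (R 4.3.3) by its quasi-likelihood test with TMM normalisation, 1 fit per comparison, on genes with at least 1 count, and p-values were Benjamini-Hochberg adjusted over all genes tested. Calls needed an adjusted p below 0.05 and a log2 change of at least 1. Changes over samplings used the F-test over all samplings of a series. CPM were computed with a prior count of 0.25 on the log2 scale. A group with 3 counts or fewer in each library counted as at the floor. The floor covers counting error only, and lower bounds set it against the mean CPM of the other group. The fits were tested on simulated data before use. The alternatives were DESeq2 1.42.0, edgeR's exact test, relative log expression scaling, a filter of 1 CPM in 3 libraries, a joint fit with and without lane, a block on replicate number, other fold limits and leaving out each library.

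Groups came from the sample labels. No 2 libraries of a group held the same counts. Replicates were pools from the plots of a field, and p-values measure the spread between these pools. The named genes were the 4 ACO genes, 13 other ethylene genes that the study names and the 5 genes most like each ACO gene by Pearson's r of condition means. The members and lists were chosen with earlier results of these data known. Sequences of these genes were not used here.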

Additional observations from a re-analysis of the deposited data

Results flagged for a closer look

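The effect of ethephon on an ACO gene differed between apex and leaf base in 7 of 20 tests of the difference itself (edgeR's quasi-likelihood test, Benjamini-Hochberg adjusted over all genes). Of all genes, 16.3% were called at 6 h and 9.80%, 10.5%, 10.0% and 7.38% on days 1 to 4 in turn. At the apex no lane held both treatments, so lane cannot be told apart from these differences. For Aco001358 the apex effect minus the leaf base effect was 1.61 on the log2 scale at 6 h, -1.27 on day 3 and 3.83 on day 4. On day 4 every treated apex library lay above every control while every treated leaf base library lay below every control. For Aco003285 the difference was 6.88 at 6 h, when the apex libraries held between 1 and 11 counts. For Aco015240 it was -1.56 at 6 h, -1.18 on day 1 and 1.22 on day 3. The day 1 call was lost without control apex replicate 2 (-0.72) or treated leaf base replicate 2 (-0.98). Groups of 3 libraries were too small for a search for single libraries that stand apart.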

How the results depend on the processing

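Of the 52 tests of ethephon 14 were called, and between 12 and 16 were called with edgeR's exact test, DESeq2, RLE normalisation, the filter on low counts and the joint fit, 19 with no limit on the fold and 5 with a log2 limit of 2. The corresponding counts were 7, 7 and 2 of 20 for the difference between tissues and 24, 26 and 12 of 40 for apex against leaf base. The 13 other ethylene genes had 20 calls, and 60 with no limit on the fold. Leaving out single libraries gave 13 to 16 calls for ethephon, 6 to 8 for the difference, 21 to 22 for the tissues and 14 to 16 for the samplings.

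Same-numbered replicates did not deviate together (correlations between -0.15 and 0.0818 over the 13 comparisons), so the numbers were not taken as pairs. With a replicate block 15 of 52, 7 of 20 and 24 of 40 tests and 15 of 16 changes over samplings were called. The block ended the call of Aco001358 at the apex on day 2 (0.92), made calls of Aco015240 at the apex at 6 h (1.12, adjusted p = 0.00105) and Aco005735 in the leaf base on day 1 (1.36, adjusted p = 0.0339), and changed no other call for ethephon. The log2 fold change of Aco001358 in the leaf base on day 2 turned from -0.04 to 0.058 and the tissue difference of Aco005735 in controls at 6 h from 0.08 to -0.025.

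No called result reversed under any alternative run. Results with a group at the floor and no call, given as counts only, were left out here. Other uncalled ones did so when single libraries were left out. Under ethephon these were Aco003285 (-0.73 to 1.57) and Aco005735 (-0.72 to 0.0074) at the apex on day 1, Aco015240 on day 3 (-0.14 to 0.33), Aco001358 in the leaf base on day 2 (-0.28 to 0.45, and 0.31 with lane) and Aco003285 there on day 4 (-1.01 to 0.10). Among differences between tissues they were Aco001358 (-0.58 to 0.033) and Aco003285 (-2.36 to 0.081) on day 1 and Aco003285 on day 4 (-0.94 to 0.18). Between apex and leaf base they were Aco005735 in controls at 6 h (-0.31 to 0.67) and day 1 (-0.84 to 0.74), and Aco015240 after ethephon on day 1 (-0.13 to 0.23) and in controls on day 2 (-0.20 to 0.19). The cause was not tested. Depth limits Aco003285 at the apex, at 3 counts or fewer in 34 of 48 libraries, and Aco005735, in 30 of 78.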
